A study of Mus musculus with 6 samples.

Results

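Heat shock proteins and their DnaJ co-chaperones were examined in mouse skin fibroblasts (MSFs) made to senesce in culture. The set holds every row of the expression table whose gene symbol starts with Hspa, Hspb, Hsp90a, Dnaja, Dnajb or Dnajc and a number, together with Hspd1, Hspe1 and Hsph1. Hspa5, Dnajb9 and Dnajc3, which work in the endoplasmic reticulum, were left out of it. This gave 69 of the 22162 rows, with 68 distinct symbols on 19 chromosomes, because Hspa14 is listed 2 times. The MSFs came from the dorsal skin of a female FASST mouse on the FVB/N background, and all 6 samples are of that 1 line. FASST mice carry a tamoxifen (TAM)-inducible Cre-ERT2 driven by the pro-alpha 2(I) collagen promoter and a lox-stop-lox p27Kip1 IRES-GFP allele at ROSA26, so both groups share the transgenes, and TAM is given to switch on the allele of p27Kip1, an inhibitor of the cell cycle. EtOH samples 1, 2 and 3 received the ethanol vehicle and are labelled non-senescent, and TAM samples 1, 2 and 3 received 10 µM TAM for 48 h and are labelled senescent. All were cultured in 3% oxygen, and the sources used here do not say when after treatment the RNA was taken. The age of the donor mouse is not given in the sources used here.

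Chaperones of the HSP70 family hold and release unfolded stretches of other proteins in a cycle driven by ATP. DnaJ proteins (also called HSP40 or J-domain proteins) bring clients to HSP70 and make it hydrolyse ATP, and the HSP110 proteins reset HSP70 by exchanging its nucleotide. HSP90 acts later on signalling proteins such as kinases and steroid receptors, the small heat shock proteins hold unfolding proteins without ATP, and the chaperonin Hspd1 with its lid Hspe1 folds proteins inside mitochondria. Several of these genes are induced by heat and other protein-damaging stress through the transcription factor Hsf1, which binds heat shock elements, arrays of GAA units in alternating orientation.

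The stretches of DNA before some of these genes are shown first, because heat shock elements near the start are the textbook mark of Hsf1 targets. Windows of 250 bases before annotated starts were taken from RefSeq on GRCm38.p6, where 54 of the 68 symbols had at least 1 window. The highly expressed Hspa8, Hspa9, Hsp90aa1 and Hsp90ab1 are among the symbols that had no window. In the lines that follow, capitals mark a pair of facing GAA units, spelled GAANNTTC or TTCNNGAA and searched on both strands. The stress-inducible HSP70 genes Hspa1a (chr17:34972157-34972406, minus strand) and Hspa1b (chr17:34959239-34959488, minus strand) are shown because their windows are near copies of each other. Hspb1 (chr5:135887669-135887918, plus strand), Hsph1 (chr5:149636337-149636586, minus strand) and Dnajb6 (chr5:29735648-29735897, plus strand) are shown because they hold the pair and had higher mean levels in TAM samples.
Hspa1a: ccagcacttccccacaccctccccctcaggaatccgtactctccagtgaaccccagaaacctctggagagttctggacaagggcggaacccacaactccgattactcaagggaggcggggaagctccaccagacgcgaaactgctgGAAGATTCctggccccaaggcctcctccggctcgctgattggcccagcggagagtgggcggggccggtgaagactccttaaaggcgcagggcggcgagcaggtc
Hspa1b: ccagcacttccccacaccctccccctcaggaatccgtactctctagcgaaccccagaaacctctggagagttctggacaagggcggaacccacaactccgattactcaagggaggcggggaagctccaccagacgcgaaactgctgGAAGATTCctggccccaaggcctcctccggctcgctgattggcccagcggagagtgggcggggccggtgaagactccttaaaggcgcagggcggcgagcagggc
Hspb1: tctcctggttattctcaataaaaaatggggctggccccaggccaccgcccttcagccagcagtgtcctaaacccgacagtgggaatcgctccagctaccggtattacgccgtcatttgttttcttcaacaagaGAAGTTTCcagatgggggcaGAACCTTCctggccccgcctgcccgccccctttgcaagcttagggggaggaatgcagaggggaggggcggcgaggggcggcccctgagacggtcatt
Hsph1: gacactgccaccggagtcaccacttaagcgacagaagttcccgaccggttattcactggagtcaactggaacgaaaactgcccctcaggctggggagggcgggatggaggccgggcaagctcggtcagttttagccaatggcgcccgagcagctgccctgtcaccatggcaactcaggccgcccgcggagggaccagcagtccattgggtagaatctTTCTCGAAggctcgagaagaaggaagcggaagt
Dnajb6: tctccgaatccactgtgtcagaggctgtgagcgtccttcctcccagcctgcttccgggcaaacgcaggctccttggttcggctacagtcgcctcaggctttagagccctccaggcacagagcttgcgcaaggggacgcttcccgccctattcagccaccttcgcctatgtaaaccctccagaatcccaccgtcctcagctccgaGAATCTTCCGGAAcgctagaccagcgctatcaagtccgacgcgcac

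The Hspa1a and Hspa1b windows were identical at 247 of 250 aligned bases (98.8%), and the marked pair began 104 bases before the start in each. Hspb1 held 2 pairs. In Dnajb6 the pairs overlapped to give 3 units in a row, spelled GAANNTTCNNGAA or TTCNNGAANNTTC. Hspd1 and Hspe1, which lie head to head on chromosome 1, shared a row of 4 units, which contains the 3-unit spelling (chr1:55088053-55088082, written on the strand of Hspe1), shown because 1 element lies between both genes of the chaperonin. Dnaja4 held 2 pairs (chr9:54699458-54699487 and chr9:54699496-54699525, plus strand) and Dnaja1 held 1 (chr4:40722333-40722362, plus strand).
Hspe1 and Hspd1: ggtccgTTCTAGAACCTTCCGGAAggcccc
Dnaja4, far pair: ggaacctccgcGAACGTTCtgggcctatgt
Dnaja4, near pair: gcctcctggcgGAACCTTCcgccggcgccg
Dnaja1: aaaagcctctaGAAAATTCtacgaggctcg

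At least 1 pair of units was found for 14 of the 54 members with a window (25.9%), against 14.5% of the 27025 genes with a window and 12.8% of all 32851 windows. The 3-unit array, every match of which also contains the 2-unit pair, was found for 3 members (5.56%), namely Dnajb6, Hspd1 and Hspe1, against 0.514% of all genes and 0.466% of windows. In these member shares the element that Hspd1 and Hspe1 share is counted for both genes. The near-identical windows of Hspa1a and Hspa1b are also counted separately. The heat-inducible Dnajb1 had windows but no pair. A match to these letters is a description of the sequence and not a measured binding site.

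Poly(A) RNA of each sample was sequenced and reads were counted per gene, and the deposited values are normalized counts. Their sums per library were between 14952367 and 17314953, and the number of reads behind them is not known for each library. Testing was limited to the 11877 genes that reached 16.2 normalized counts (1 c.p.m. of the mean library sum) in 3 or more libraries. Cdkn1b, the gene of p27Kip1, gave 1427, 3074 and 1853 normalized counts in EtOH and 1699, 1519.85 and 1630.0 in TAM (log2 difference −0.32, limma adjusted p = 0.677). The sources do not say if transgene reads fall on this row, so it does not check the labels. The 10 fibroblast markers were all found, at summed levels of 1962055 to 2082633 normalized counts in EtOH and 1278753 to 1594317 in TAM libraries. The marker sums of other cell types were far lower. They were 80.2 to 88.6 in EtOH and 63.5 to 122 in TAM for keratinocytes (7 of 7 found, Krt1 listed at 0 in every library), and 203 to 527 and 366 to 548 for macrophages (7 of 8 found, Emr1 at 0 in every library). For endothelial cells (5 of 5 found) they were 92.5 to 241 in EtOH and 24.6 to 44.4 in TAM, with Cdh5 at 0 in 3 libraries. The part of these cells in the results that follow was not tested.

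The members were expressed over a wide range. Together they made up 0.778%, 0.796% and 0.650% of the normalized counts in EtOH 1, 2 and 3 and 0.663%, 0.943% and 0.651% in TAM 1, 2 and 3, so the groups overlapped and TAM 2 stood highest. The 3 highest rows, Hspa8, Hsp90ab1 and Hspa9, held 47.9% of the summed member signal. Per kilobase of annotated exon, the mean level of Hspa8 was 6891 normalized counts in EtOH and 6288 in TAM, and that of Hsp90ab1 was 7113 and 5599. These are the constitutive cytosolic HSP70 and HSP90. The lengths are all annotated exon bases of a gene, 4156 for Hspa8 and 2999 for Hsp90ab1. Their longest protein-coding transcripts have 2394 and 2520 bases, so the order of Hspa8 and Hsp90ab1 in EtOH depends on the length used. Hspa9, the HSP70 of mitochondria, followed at 3835 and 2080 per kilobase, then Hsp90aa1 at 1770 and 2225 and Hspd1 at 1267 and 1397. Taken over all 6 libraries, neighbours in this order overlapped in their values per kilobase. Within each group, every library of Hsp90ab1 lay above every library of Hspa9. Among EtOH libraries, all values of Hspa9 lay above those of Hsp90aa1, and all values of Hsp90aa1 above those of Hspd1. Among DnaJ genes the highest per kilobase was Dnaja2 (770 in EtOH, 903 in TAM), a general cytosolic partner of HSP70, followed by Dnajc8, a protein of the spliceosome (626.0 and 605). The inducible Hspa1a and Hspa1b were near 100 per kilobase, at 118 and 139 in EtOH and 85.3 and 99.1 in TAM. For 3 tested members (Dnaja1, Dnajc7 and Hspa1b) the interval listed in the table is shorter than the annotated exons, so their level per length is uncertain.

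**Figure D1:**
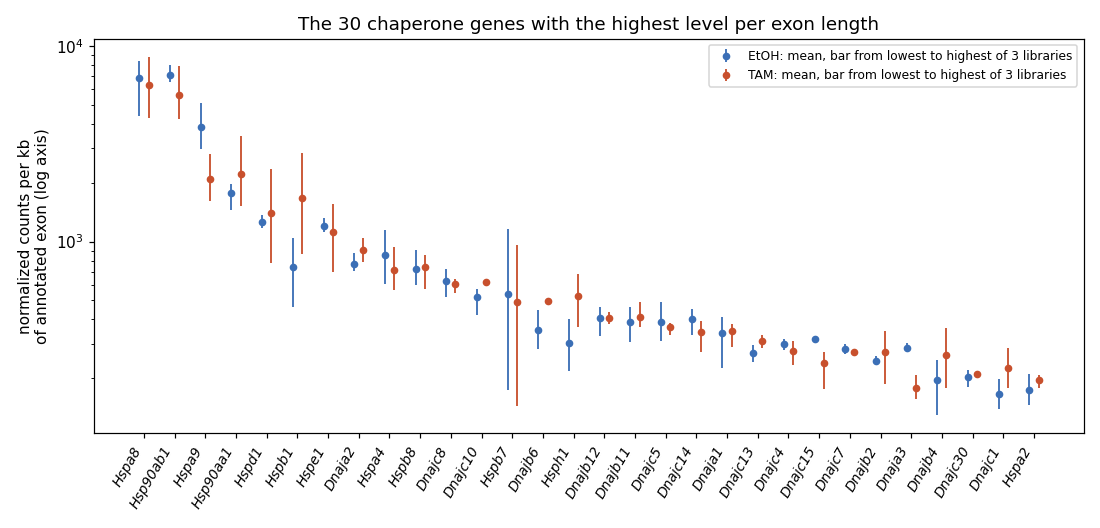
Level per kilobase of annotated exon (normalized counts per kb, log axis) of the 30 members with the highest mean over the 6 libraries. Points are means of the EtOH or TAM libraries (n = 3 each) and bars run from the lowest to the highest library. Hspa8 and Hsp90ab1 lie highest, Hspa9 is the only one of the leading 5 whose bars do not overlap, and Hspb7 has the longest bars.

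Of the 69 rows, 57 were tested. The other 12 were Hspa1l, Hspb3, Hspb9, Dnajb3, Dnajb7, Dnajb8, Dnajb13, Dnajc5b, Dnajc5g, Dnajc6, Dnajc22 and the second row of Hspa14. Their highest single value was 14.9 normalized counts, for Hspa1l in TAM 1, and 3 of them (Dnajb8, Dnajc5b and the second Hspa14 row) were listed at 0 in all 6 libraries. Hspa1l, an HSP70 gene abundant in testis, shares 72.0% of its annotated exon bases with a gene on the other strand, and its values of 8.45, 7.59 and 6.99 in EtOH and 14.9, 10.9 and 12.9 in TAM were all under the testing limit, although the TAM libraries lay all above the EtOH libraries.

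The comparison of TAM with EtOH asks which chaperone genes differ between fibroblasts labelled senescent and those labelled non-senescent. Only the senescent group received TAM. Effects of TAM itself or of active Cre-ERT2 therefore cannot be told apart here from those of senescence. No member was called at a Benjamini-Hochberg adjusted p under 0.05 in limma's moderated test over all 11877 genes, in either direction, where 0.168% of all genes (20) were called higher and 0.0758% (9) lower. With the replicate number as a block, 1.62% of all genes (192) were called and again no member. The lowest adjusted p of any member was 0.182 (Dnaja3) without the block and 0.119 (Hspa9) with it. At an unadjusted p under 0.05, 6 of the 57 members (10.5%) passed, against 13.4% of all genes, namely Hspa9, Dnaja3, Dnajb6, Dnaja4, Dnajb5 and Hsph1.

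The values of the 3 TAM libraries lay all above the 3 EtOH libraries for 5 members (8.77%), against 9.19% of all genes tested, and all below for 7 (12.3%), against 11.4%. Both shares are near the background. With all libraries scaled to equal sums, 8 members lay above and 6 below, and the shares of all genes under that scaling are not given here. As deposited, members above were Dnaja4, Dnajb5, Dnajb6, Dnajb14 and Dnajc10, and members below were Hspa9, Dnaja3, Hspb2, Dnajc15, Dnajc17, Dnajc19 and Dnajc27. For any of them the two-sided exact permutation test over the libraries gives p = 0.1, the smallest that 3 against 3 allows. The log2 difference (TAM minus EtOH, on the log2(normalized counts + 1) scale) was positive for 32 and negative for 25 of the tested members, with a median of 0.03 against −0.03 over all genes. It ran from −0.88 (Hspa9) to 1.06 (Hspb1). Its median size was 0.241, against 0.268 over all genes, and 1 member (1.75%) reached a size of 1 or more, against 8.76% of all genes. In bulk samples such as these, a lower value for a gene can come from fewer cells that express it or from less RNA per cell, and the 2 cannot be told apart. Nothing in the labels says that the samples of a group were separate cultures, so p-values measure the spread between these samples, which may be technical.

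**Figure D2:**
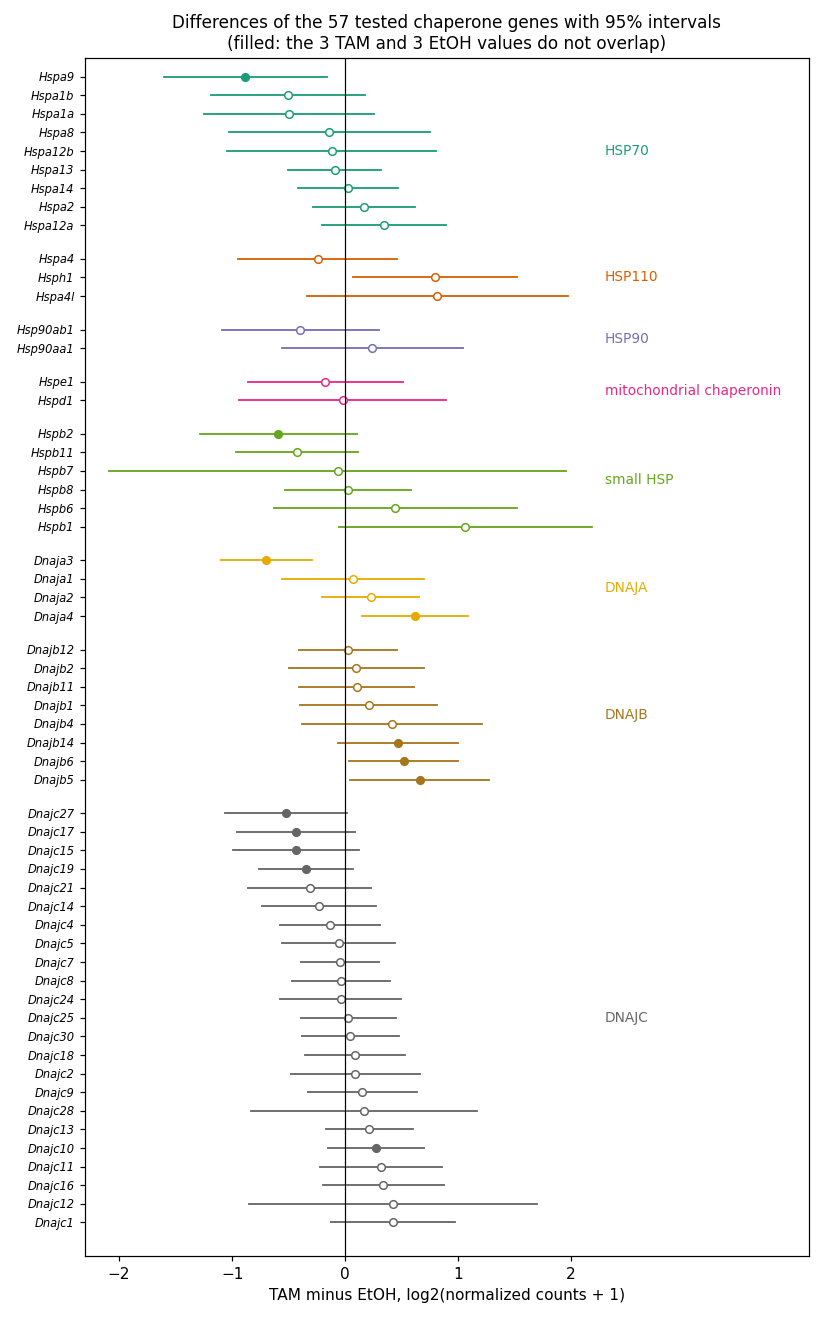
Log2 difference (TAM minus EtOH, of log2(normalized counts + 1)) of the 57 tested members with 95% intervals from limma, grouped by class. Filled points are the 12 members whose 3 TAM and 3 EtOH values do not overlap, and all DNAJB points lie above 0 while most intervals cross it.

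Among the HSP70 genes (11 rows, 9 tested, 3 positive and 6 negative, median −0.12), Hspa9 had the lowest value relative to EtOH. Hspa9, or mortalin, pulls proteins through the inner mitochondrial membrane and folds them in the matrix. Its normalized counts were 11763, 20183 and 13295 in EtOH 1, 2 and 3 and 7143, 11043 and 6352 in TAM 1, 2 and 3. Every TAM library lay below every EtOH library, and each TAM library also lay below the EtOH library of its own number. The log2 difference was −0.88 (SE 0.31, 95% interval −1.61 to −0.16, n = 3 and 3, limma adjusted p = 0.287). Hspa8 (HSC70), the constitutive cytosolic HSP70, did not separate the groups, with 34987, 32640.2 and 18293 in EtOH and 23858, 36640.2 and 17900 in TAM. In both groups its lowest library was replicate 3. Its log2 difference was −0.14 with a wide 95% interval, from −1.03 to 0.75. Of its message, 87.9% matches other places in the genome at 95% identity or more, so its count is uncertain by the reads shared with them.

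Hspa1a and Hspa1b, the HSP70 genes switched on by heat, were low. They lie side by side on chromosome 17 of mm9 (35106143 to 35109069 and 35093942 to 35096181), each with 1 exon. Hspa1a stood at 431, 259 and 345 normalized counts in EtOH and 162, 255 and 332 in TAM. Hspa1b gave 490.0, 307 and 370.3 in EtOH and 193, 282 and 358 in TAM. In both genes TAM 1 and TAM 2 lay below all EtOH libraries, TAM 3 lay within their range, and each TAM library was below the EtOH library of its number. The log2 differences were −0.49 (SE 0.32, adjusted p = 0.565 by limma) and −0.50 (SE 0.29, adjusted p = 0.511). They were −0.21 and −0.27 without TAM 1, and −0.32 in both without EtOH 1. The genes share 74.0% and 78.5% of their messages at 95% identity or more, so counts may be split between them, and 18.9% of the annotated exon bases of Hspa1a also carry a gene on the other strand. The other 5 tested HSP70 rows, among them the testis-abundant Hspa2, the ribosome-bound Hspa14 and the distant relatives Hspa12a and Hspa12b, lay between −0.12 and 0.35 with overlapping groups.

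The HSP110 genes had the highest median of any class (0.80, 3 tested, 2 positive), though it was 0.46 without EtOH 3 and 0.38 with the replicate block and without pair 2. Hsph1, the heat-inducible HSP110, stood at 2837, 1539 and 2034 normalized counts in EtOH and 2583, 4801 and 3763 in TAM. TAM 2 and TAM 3 lay above all EtOH libraries, and TAM 1 lay below EtOH 1. The log2 difference was 0.80 (SE 0.31, 95% interval 0.07 to 1.52, adjusted p = 0.329 by limma). Hspa4l, a relative abundant in testis, gave 492, 1600 and 422 in EtOH and 1203, 1483 and 1015 in TAM, a log2 difference of 0.82 (SE 0.49, adjusted p = 0.535). Here EtOH 2 stood apart from the other EtOH libraries and above all TAM libraries, without EtOH 3 the difference was 0.46, and without EtOH 2 it was 1.42 (adjusted p = 0.0969, with adjusted p between 0.0105 and 0.840 over the 16 alternatives). Hspa4, the constitutive member, stood at 6312, 4504 and 3353 in EtOH and 3136, 5193 and 3521 in TAM, with overlapping groups and a log2 difference of −0.24 (95% interval −0.94 to 0.46).

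The HSP90 genes did not separate the groups. Hsp90aa1, the stress-inducible form, gave 7415, 7768 and 5686 normalized counts in EtOH and 6010.4, 13638 and 6590.3 in TAM. A single library, TAM 2, held the high value, and without it the log2 difference went from 0.24 to −0.13. Its message matches other places in the genome over 84.5% of its length. Hsp90ab1, the constitutive form, gave 20347, 24095 and 19552 in EtOH and 13884, 23849 and 12640.4 in TAM. TAM 1 and TAM 3 lay below all EtOH libraries while TAM 2 lay within them (log2 difference −0.40, 95% interval −1.09 to 0.30, with −0.68 without TAM 2 and −0.22 without TAM 3). The HSP90 of the endoplasmic reticulum, Hsp90b1, is not in this set and is given with the genes left out.

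The chaperonin pair (2 tested, both negative) did not separate the groups either. Hspd1 (HSP60) stood at 3612, 3326 and 3103 normalized counts in EtOH and 2784, 6245 and 2047 in TAM. Hspe1 (HSP10), its lid, stood at 1946, 1646 and 1705 in EtOH and 1614, 2291 and 1027 in TAM. For both genes TAM 2 was the highest of the 6 libraries and TAM 3 the lowest, and the spread inside the TAM group was larger than the difference between the groups (SD 2241 in TAM and 255 in EtOH for Hspd1). The log2 differences were −0.02 (95% interval −0.94 to 0.90) and −0.18 (95% interval −0.86 to 0.51). The annotated exons of the pair overlap by 112 bases on opposite strands, the strand setting of the counting is not stated, and 92.2% of the Hspd1 message and 69.3% of the Hspe1 message match other places in the genome.

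Of the small heat shock proteins (8 members, 6 tested, 3 positive and 3 negative, median −0.02), Hspb1, Hspb6, Hspb7 and Hspb8 were highest in replicate 2 of both groups. Hspb1 (HSP25), which binds unfolding proteins and actin filaments and lies on chromosome 5 of mm9 (136363788 to 136365433), had the largest positive difference of all members. Its normalized counts were 738, 1076 and 480.0 in EtOH 1, 2 and 3 and 886, 2933 and 1346 in TAM 1, 2 and 3. TAM 2 and TAM 3 lay above every EtOH library and TAM 1 lay between EtOH 1 and EtOH 2, and each TAM library lay above the EtOH library of its number. The log2 difference was 1.06 (SE 0.48, 95% interval −0.05 to 2.18, adjusted p = 0.395 by limma, 0.171 with the replicate block), and without TAM 2 it was 0.59. Of its message, 86.0% matches 1 other place in the genome, annotated as Hsp25-ps1, at 95% identity or more.

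Hspb7, a small heat shock protein abundant in heart and muscle, gave 820.4, 3198 and 482 in EtOH and 401, 2675 and 1026 in TAM. Replicate 2 stood well above the others in each group, and the log2 difference was −0.07 with a 95% interval from −2.09 to 1.95. Hspb6 (HSP20) stood at 186, 383 and 139 in EtOH and 206, 482 and 252 in TAM (log2 difference 0.44, SE 0.46, between 0.0858 and 0.86 without 1 library). Hspb2, which forms complexes in muscle, was lower in every TAM library, at 88.4, 158 and 93.0 in EtOH and 75.1, 68.7 and 72.6 in TAM (log2 difference −0.59, SE 0.29, adjusted p = 0.446 by limma, and −0.33 without EtOH 2). The start of Hspb2 lies 404 bases from that of the crystallin gene Cryab on the opposite strand, and Cryab differed by 0.01 on the log2 scale (SE 0.34). Hspb8, the partner of the co-chaperone Bag3, was nearly level, at 1164, 1772 and 1312 in EtOH and 1111, 1657 and 1557 in TAM (log2 difference 0.03, 95% interval −0.53 to 0.58). The 5 muscle markers summed to 0.77 to 15.3 normalized counts in EtOH and 17.3 to 23.0 in TAM, with Ckm at 0 in every library, so muscle transcripts were at or near 0 beside these values. Hspb11, a subunit of the transport machinery of cilia despite its name, gave −0.42 (SE 0.23).

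**Figure D3:**
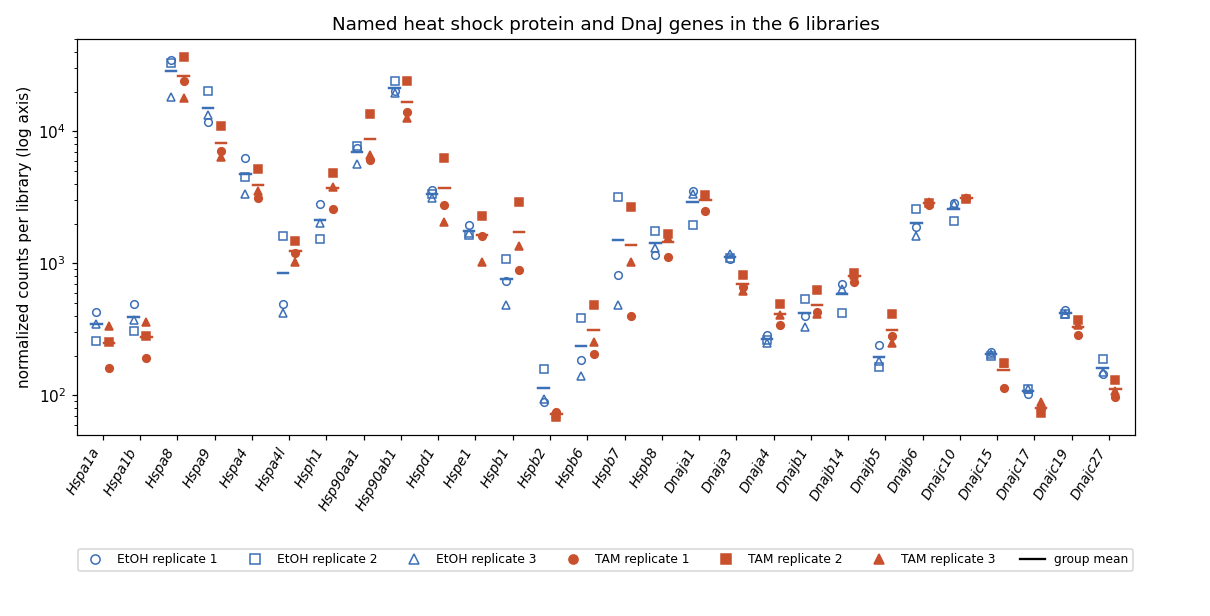
Normalized counts (log axis) of the 28 members described by name, in each of the 6 libraries. Open blue symbols are EtOH and filled red symbols TAM, the shape gives the replicate number and the short line the group mean (n = 3). Hspa9, Dnaja3, Dnaja4 and Dnajb6 show groups that do not overlap, and the squares of replicate 2 stand high in both groups for Hspb7, Hspb6 and Hspb1.

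The DNAJA genes, the closest relatives of bacterial DnaJ, split in direction. Dnaja3 (Tid1), the partner of Hspa9 in the mitochondrial matrix, lies on chromosome 16 of mm9 (4639988 to 4687292). Its normalized counts were 1085, 1090.4 and 1183 in EtOH and 660.2, 809 and 615 in TAM. The EtOH libraries were tightly grouped and all TAM libraries lay well below them. The log2 difference was −0.70 (SE 0.17, 95% interval −1.10 to −0.29, n = 3 and 3, adjusted p = 0.182 by limma), the lowest adjusted p among the members. Dnaja4 was higher in every TAM library, with 285, 262 and 251 in EtOH and 340.2, 493 and 406 in TAM (log2 difference 0.62, SE 0.20, adjusted p = 0.262). Of its annotated exon bases, 44.1% are shared with Wdr61 on the other strand, and without strand the reads of both cannot be told apart. Dnaja1, the main cytosolic partner of HSP70, stood at 3535, 1954 and 3330.0 in EtOH and 2505, 3264 and 3262 in TAM with overlapping groups (log2 difference 0.07, 95% interval −0.56 to 0.70), and Dnaja2 differed by 0.23 (SE 0.18).

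All 8 tested DNAJB genes had positive log2 differences (median 0.31), and for 3 of them the TAM libraries lay all above the EtOH libraries (37.5% of the class, against 9.19% of all genes). None was called. All 8 were also positive under each of 3 other scalings. Without 1 library 6 to 8 were positive, and with library weights or with the block and without pair 2 it was 6, as Dnajb2, Dnajb11 and Dnajb12 lay close to 0. The class median was 0.13 without EtOH 3. Dnajb6, which keeps aggregation-prone proteins soluble, stood at 1887, 2563 and 1624 normalized counts in EtOH and 2767, 2877 and 2899 in TAM. The TAM libraries were close together, just above EtOH 2 and well above the other EtOH libraries (log2 difference 0.52, SE 0.20, adjusted p = 0.340 by limma). Its message matches other places in the genome over 85.1% of its length. Dnajb5, a close relative of Dnajb1, gave 239, 165 and 183 in EtOH and 282, 411 and 247 in TAM (log2 difference 0.66, SE 0.26, adjusted p = 0.343). Dnajb14, anchored in the membrane of the endoplasmic reticulum, gave 693, 424 and 644 in EtOH and 728, 845 and 813 in TAM (log2 difference 0.47, SE 0.22, and 0.25 without EtOH 2). Dnajb1, the heat-inducible HSP40, did not separate the groups, at 399.6, 537 and 330.3 in EtOH and 424, 624 and 412 in TAM (log2 difference 0.21, 95% interval −0.40 to 0.81), though each TAM library was above the EtOH library of its number. Dnajb4, Dnajb11, Dnajb2 and Dnajb12 lay between 0.02 and 0.41.

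The DNAJC genes, which share little beyond the J domain, were the largest class (27 members, 23 tested, 12 positive and 11 negative, median 0.03), and their differences lay between −0.52 and 0.42. Dnajc10 (ERdj5), a disulphide reductase of the endoplasmic reticulum, gave 2869, 2097 and 2818 in EtOH and 3129, 3078 and 3108 in TAM, and its TAM libraries varied little (SD 25.3 against 432 in EtOH, log2 difference 0.27, SE 0.18, and 0.13 without EtOH 2). Dnajc27, which carries a Rab-like GTPase domain, had the lowest log2 difference of the class (−0.52, SE 0.23, adjusted p = 0.387 by limma). Its normalized counts were 145, 187 and 149.7 in EtOH and 97.3, 131 and 107 in TAM. Dnajc17, a spliceosome-associated protein, gave 102, 113 and 112 in EtOH and 79.5, 72.9 and 88.5 in TAM (log2 difference −0.43, SE 0.22), and its whole message matches 1 other place in the genome. Dnajc15 and Dnajc19 sit at the import motor of the inner mitochondrial membrane, where they act on Hspa9. Dnajc15 gave 213, 198 and 206 in EtOH and 114, 174 and 176 in TAM, and Dnajc19 gave 441, 411 and 411 in EtOH and 286, 369 and 339.9 in TAM. In both genes every TAM library was below every EtOH library (log2 differences −0.43, SE 0.24, and −0.35, SE 0.18). For Dnajc15 it was −0.23 without TAM 1. The other members of the class include Dnajc5, the cysteine string protein, Dnajc13 of endosomes, and Dnajc2, which works with Hspa14 at the ribosome, with log2 differences of −0.06, 0.22 and 0.09.

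Grouped by compartment instead of class, 4 of the 9 mitochondrial members tested (Hspa9, Dnaja3, Dnajc15 and Dnajc19) had all TAM libraries below all EtOH libraries and none had them above, with a median of −0.18 and 6 of 9 negative. The share of 44.4% stands against 11.4% of all genes. It depends on the scaling and on single libraries. With all libraries scaled to equal sums, 3 lay below (Hspa9, Dnaja3 and Dnajc19) and 2 above (Dnajc11 and Dnajc30), and the median was −0.06. Without 1 library the median ran from −0.45 (without TAM 2) to −0.03 (without TAM 3), and 1 to 4 of the 9 were positive. The other 5 were Hspd1, Hspe1, Dnajc11, Dnajc28 and Dnajc30, whose groups overlapped. Among the 9 members of the endoplasmic reticulum, 8 were positive (median 0.10), where 46.2% of all genes were, but only 6 with library weights or without EtOH 2, TAM 2 or TAM 3. Dnajb14 and Dnajc10 (22.2%, against 9.19% of all genes) lay above in every TAM library and none lay below. Hspa5, Dnajb9 and Dnajc3, genes of this compartment that the rule leaves out, were all negative (−1.75, −1.06 and −0.21). The share of positive members therefore depends on which genes are listed. The 39 tested members of neither compartment had a median of 0.03. These lists were compiled with earlier results of these data known, and the shares are descriptions of the lists.

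The 3 lowest log2 differences among all chaperone genes examined belonged to genes of the endoplasmic reticulum outside the set. Hspa5 (BiP), the HSP70 of the endoplasmic reticulum and a main target of the unfolded protein response, stood at 22484, 60658.7 and 25378 normalized counts in EtOH and 9259, 13205 and 7445 in TAM. EtOH 2 held more than 2 times the value of any other library, and all TAM libraries lay below all EtOH libraries (log2 difference −1.75, SE 0.43, adjusted p = 0.182 by limma, 0.0501 with the replicate block). Dnajb9 stood at 957, 1482 and 1168 in EtOH and 577, 538 and 581 in TAM (log2 difference −1.06, SE 0.20, adjusted p = 0.103), while Dnajc3 differed by −0.21 with overlapping groups. Hsp90b1 and Hyou1, relatives of HSP90 and HSP110 in the same compartment, had all TAM libraries below all EtOH libraries, with log2 differences of −1.10 (SE 0.40) and −0.62 (SE 0.19). Of these 5 genes none was called, and 4 had all TAM libraries below all EtOH libraries, as did 11.4% of all genes. The difference between these genes and the members of the endoplasmic reticulum was not tested.

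Other genes of the pathway (heat shock factors, co-chaperones of HSP70 and HSP90, the TRiC chaperonin and prefoldin, mitochondrial chaperones, crystallins) numbered 67 in the table, of which 60 were tested. None was called with or without the block, 20 were positive and 40 negative, and the median was −0.13, where 46.2% of all genes were positive with a median of −0.03. Hsf1 itself gave 806, 634 and 850.5 normalized counts in EtOH and 587, 780.0 and 702 in TAM, with overlapping groups (log2 difference −0.15, SE 0.20). The 3 TAM libraries lay all above the EtOH libraries for 1 of the 60 genes (9.19% of all genes did), Bag3, the partner of Hspb8 in the clearance of misfolded proteins (2511, 2488 and 1850.5 in EtOH and 2551, 2808 and 2739 in TAM, log2 difference 0.25, SE 0.18). They lay all below for 9 of the 60, where 11.4% of all genes did, namely Hsf2, St13, Fkbp8, Ppid, Pfdn5, Clpx, Lonp1, Hscb and Serpinh1. The lowest log2 difference of these was that of Pfdn5, a prefoldin subunit (−0.77, SE 0.22, adjusted p = 0.218 by limma). Its normalized counts were 3154, 4349 and 3062 in EtOH and 1765, 1919 and 2486 in TAM. Hscb, a DnaJ-type protein of iron-sulphur cluster assembly in mitochondria, gave −0.66 (SE 0.27), and Lonp1, the protease of the mitochondrial matrix, gave −0.65 (SE 0.20).

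Single libraries also stood apart across many members. TAM 2 was the highest of the 6 libraries for 19 of the 57 members (33.3%, against 25.7% of all genes) and EtOH 1 for 12 (21.1%, against 8.62%). Relative to each gene's mean over the 6 libraries, the median member lay at 0.15 in TAM 2 and at −0.08 in TAM 1 on the log2 scale, while the median over all genes was 0.01 and −0.04. The deviation in TAM 2 was larger in some classes, with medians of 0.69 for HSP110 and for the chaperonin pair, 0.62 for HSP90 and 0.59 for small heat shock proteins, the last of which also stood at 0.50 in EtOH 2. In DNAJC genes the median in TAM 2 was near 0. The 3 TAM libraries lay above the EtOH library of the same number for 11 members (19.3%, against 18.3% of all genes) and below for 12 (21.1%, against 23.6%), shares near those of all genes.

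**Figure D4:**
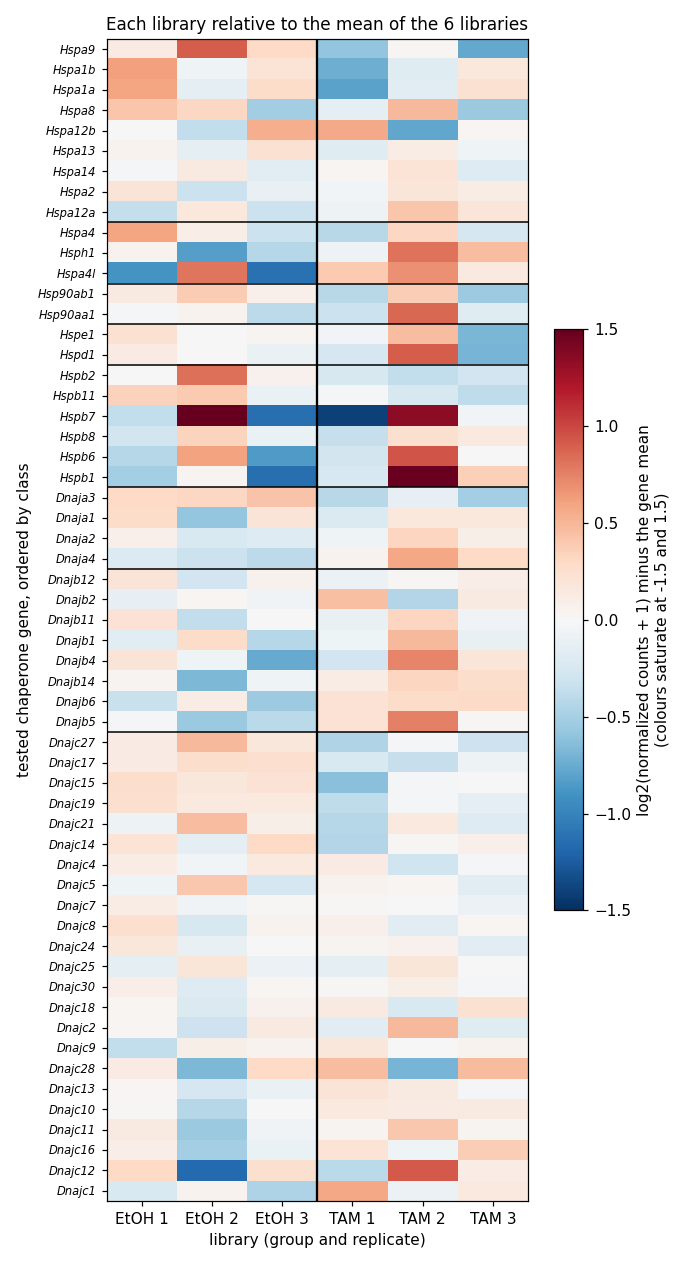
Deviation of log2(normalized counts + 1) from each gene's mean over the 6 libraries, for the 57 tested members (rows, ordered by class, with black lines between classes) and the 6 libraries (columns, EtOH left and TAM right of the thick line). Red is above and blue below the mean. The TAM 2 column is red for the HSP110, HSP90, chaperonin and most small heat shock protein rows, and Hspa9 and Dnaja3 are red in all EtOH columns.

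The members with a pair of facing GAA units before a start were set beside those without. Of the 13 tested members with such a pair, 8 had a positive and 5 a negative log2 difference (median 0.27), and of the 32 tested members with a window but no pair, 18 were positive and 14 negative (median 0.03). Of the 3 tested members with the 3-unit array, 1 was positive and 2 negative (median −0.02). Of the 42 tested members with a window but without that array, 25 were positive and 17 negative (median 0.05). The 2 negative members with the array, Hspd1 and Hspe1, share 1 element, so no direction can be read from these 3. The 13 genes with the pair were Dnaja1, Dnaja4, Dnajb4, Dnajb6, Dnajc10, Dnajc27, Hsph1, Hspa1a, Hspa1b, Hspd1, Hspe1, Hspb1 and Hspb6. Among the genes whose windows are printed above, Hspa1a stood at −0.49 and Hspa1b at −0.50, and Hspb1, Hsph1 and Dnajb6 at 1.06, 0.80 and 0.52. Hspb1, Hsph1 and Dnajb6 were printed for their higher mean levels in TAM, so their direction follows from that choice. Of the genes printed as shorter stretches, Hspd1 stood at −0.02, Hspe1 at −0.18, Dnaja1 at 0.07 and Dnaja4 at 0.62. A link between these units and the differences was not tested.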

How the data were processed

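RNA-seq of 6 MSF samples, 3 EtOH and 3 TAM, was analysed. The authors mapped reads to mm9 with TopHat, assigned them to RefSeq genes by htseq-count, and tested differences by edgeR after TMM scaling. Versions are not given in the sources used here. The deposited values are a normalized signal, given by the authors as normalized counts per gene and library with Ensembl and RefSeq identifiers, symbols and mm9 positions, and the scaling is not stated. Because most values are not whole numbers, a count model was not fitted in place of the planned one, and depth and counting errors are unknown.

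Values were taken as log2(value + 1) and tested with limma 3.58.1 in R 4.3.3, with an intensity trend, over 11877 genes with 16.2 normalized counts or more in at least 3 of 6 libraries. A gene was called at a p-value under 0.05 after Benjamini-Hochberg adjustment over all of them. Intervals cover 95%. The fit was first tested on simulated data, in which 200 genes were changed. Those changes were larger than any difference among the members, so that test does not show if differences of the size seen here would be called. Members were read off this fit.

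Libraries were grouped by their labels, which also number the replicates 1 to 3 in each group. Over the 11877 genes, deviations from the group mean correlated between same-numbered libraries with Pearson's r of 0.24, 0.29 and 0.42, and between other libraries with r from −0.31 to 0.04, so the numbers were taken to pair the samples. Neither the labels nor the methods say that same-numbered samples were made together, so a replicate block was fitted as an alternative. Unless another fit is named, SEs, intervals and adjusted p come from the main fit, without the block. The block narrowed the intervals of some members and widened those of others. The SE went from 0.31 to 0.19 for Hspa9 and from 0.31 to 0.35 for Hsph1.

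The members and the lists of pathway genes, compartments and cell markers were chosen with earlier results of these data known. The main stress-inducible and constitutive chaperones (14 genes) were named whatever their values, and so were, in each class, up to 2 genes with the largest positive and 2 with the largest negative difference among those whose groups do not overlap, and any called member. Hspa4l, Dnajc15, Dnajc19, Dnajb14, Hspb6 and Hspb7 were named after their values were seen. Of the other pathway genes, called genes and up to 3 rises and falls were named, and Hsf1 besides. Exon lengths and overlaps came from the mm9 annotation. BLAST 2.17.0 was used to find other places of mm9 that match a member's transcript (95% identity, 100 bases or longer), and how the authors treated reads with several matches is not stated. Promoter windows were RefSeq sequences of GRCm38.p6, joined by symbol, and none of their coordinates were mixed with mm9. Python 3.11.15, pandas 2.3.3 and matplotlib 3.10.9 were used. Alternatives were the block, pseudocounts of 0.1 and 10, 2 other filters, 3 scalings, library weights and leaving out each library. A block without pair 2 was added after seeing the data.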

Additional observations from a re-analysis of the deposited data

How the results depend on the processing

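No member was called under the replicate block, both other pseudocounts, both other filters, the 3 scalings or without any 1 library. With limma's library weights 1 member was called higher (Dnajb6, 0.68, adjusted p = 0.0338) and 2 lower (Dnaja3, −0.84, adjusted p = 0.0141, and Hspa9, −0.96, adjusted p = 0.0338), besides 1 other pathway gene (Lonp1), and 742 of all genes in place of 29. With the block and without pair 2, 2 members were called higher (Hspa4l, 1.28, adjusted p = 0.0105, and Dnajc1, 0.71, adjusted p = 0.0461) and 1 lower (Dnaja3, −0.83, adjusted p = 0.0321), and 924 of all genes. Over the 16 alternatives adjusted p ran from 0.0141 to 0.527 for Dnaja3, 0.0338 to 0.587 for Hspa9, 0.0338 to 0.722 for Dnajb6, 0.0105 to 0.840 for Hspa4l and 0.0461 to 0.811 for Dnajc1. The cause was not tested. The count over all genes was 192 with the replicate block, 17 without a filter, 18 with at least 10 normalized counts in every library and 0 to 17 without 1 library. The block changed no call of a member.

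The median of the members ran from −0.06 to 0.14. Equal library sums moved the median of all genes from −0.03 to 0.08, and under them Hspd1 was 0.0899 and Hspb7 0.0459. Other reversals of sign were Hspa8 at 0.0173 (quantile normalization), Dnaja1 at −0.0765 and Hspb7 at 0.38 (library weights), and Hsp90aa1 at −0.045, Dnaja1 at −0.26 and Hspb7 at 0.0293 (block without pair 2). Without 1 library, ranges that crossed 0 were −0.43 to 0.10 for Hspa8, −0.10 to 0.20 for Hspb8, −0.48 to 0.32 for Hspd1, −0.45 to 0.13 for Hspe1, −0.20 to 0.23 for Dnaja1, −0.75 to 0.72 for Hspb7 and −0.13 to 0.46 for Hsp90aa1. These 7 were the members whose sign changed, out of 28 named. The precision of each value is set by 3 libraries a group, and read depth is unknown.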

Other observations

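Subunits of the TRiC chaperonin, which folds actin and tubulin in the cytosol, had high values in TAM 2. Cct3 stood at 2218, 1460.5 and 1823 normalized counts in EtOH and 1478, 3539 and 1641 in TAM, and Cct5 at 4019, 3872 and 4417 in EtOH and 2331, 5401 and 3391 in TAM. Tcp1 stood at 2810, 3072 and 2482 in EtOH and 1926, 4152 and 1985 in TAM. In each of these 3 genes TAM 2 lay above every EtOH library while TAM 1 and TAM 3 did not, and the groups overlapped. The summed level of the 15 genes of TRiC, prefoldin and their cofactors in the table was 28582 to 32292 in EtOH and 20069 to 38058 in TAM. Bag2, a co-chaperone of HSP70, was also highest in TAM 2, at 649, 558 and 336 in EtOH and 538, 1486 and 433 in TAM. These genes were chosen after their values were seen, and the part of TAM 2 as a single library in them was not tested.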
